A study of Saccharomyces cerevisiae with 24 samples.

Results

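The transcriptome of budding yeast carrying the npl3-F162Y allele was compared with that of yeast carrying wild-type NPL3, both grown at 30 °C. The comparison used 6 of the 24 libraries of the series, 3 of each genotype, and covered all annotated features with enough counts, 6518 of 7127. All 6 libraries came from MATa cells of the W303 background, which carry mutant alleles of ADE2, CAN1, HIS3, LEU2, TRP1 and URA3 and are GAL+. The strain is an NPL3 shuffle strain, in which the gene is supplied on the low-copy LEU2 plasmid pRS315. The control plasmid held NPL3 and the mutant plasmid held npl3-F162Y, a phenylalanine-to-tyrosine substitution in the first RNA recognition motif. Cultures were in mid-log phase in rich medium (YPD) and were not treated. The same allele was also sequenced after a shift to 37 °C for 1 hour, and 2 further alleles at 30 °C, npl3-P196D-A197D (the linker between the RNA-binding motifs) and npl3-F245I (the second motif), served for comparison. The labels do not say whether the 3 libraries of a genotype came from separate cultures, so the spread between replicate libraries may be technical. The edgeR p-values rest on that spread as estimated over all 24 libraries, those at 37 °C included, and not over the 6 alone.

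Npl3 is an abundant SR-like protein that binds nascent RNA polymerase II transcripts through a pair of RNA recognition motifs. It takes part in elongation, splicing, choice of the 3′ end and nuclear export, and it returns to the nucleus by way of the importin Mtr10 after phosphorylation by the kinase Sky1. Its RGG-rich carboxyl-terminal domain is methylated by Hmt1. In the reference genome (R64) the codon that the allele name points to lies on the + strand of chromosome IV, inside chrIV:1329236-1329298, which covers codons 152 to 172 of the NPL3 coding sequence. The stretch is shown because it carries the mutated codon, in capitals in its wild-type form. The counts do not show the substitution itself.
NPL3 codons 152 to 172: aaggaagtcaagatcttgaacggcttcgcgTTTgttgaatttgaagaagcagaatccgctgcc

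Assigned reads ranged from 23988117 to 33351518 in the NPL3 libraries and from 22524324 to 27817766 in the npl3-F162Y libraries. Levels are given as CPM, that is, counts divided by the TMM-scaled library size. The factors were 0.8947 to 0.9055 in NPL3 and 0.975 to 0.9852 in npl3-F162Y, so the choice of scaling bears on small changes. With library size alone the median log2 change of all genes was 0.08, against -0.04 with TMM, a shift of 0.12. The reads that fell in no feature made up 4.39 to 4.63% in NPL3 and 5.13 to 5.26% in npl3-F162Y. Replicates differed by more than counting noise in every pair, with a chi-square of 2.9 to 12.6 per gene, so no library was a copy of another. The NPL3 pairs at 37 °C, which also entered the fit, had 25.2 to 58.

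In npl3-F162Y 4458 of the 6518 genes passed edgeR's quasi-likelihood test at an adjusted p (Benjamini-Hochberg) of 0.05, which is 68.4%. Of these, 1942 were higher (29.8% of the genes tested) and 2516 lower (38.6%). With library size alone the split was 2580 higher and 1651 lower, so 61.0% rather than 43.6% of the called genes were higher. Many changes were small: 1137 of the genes that rose and 2143 of those that fell moved by less than 1.5-fold. Large changes went mainly upwards, with 424 genes at least 2-fold higher (6.51%) against 61 lower (0.936%). At 4-fold the numbers were 67 (1.03%) and 6 (0.0921%). The CPM values of the genotypes did not overlap for 2139 genes that were higher (32.8%) and 2775 that were lower (42.6%).

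**Figure D1:**
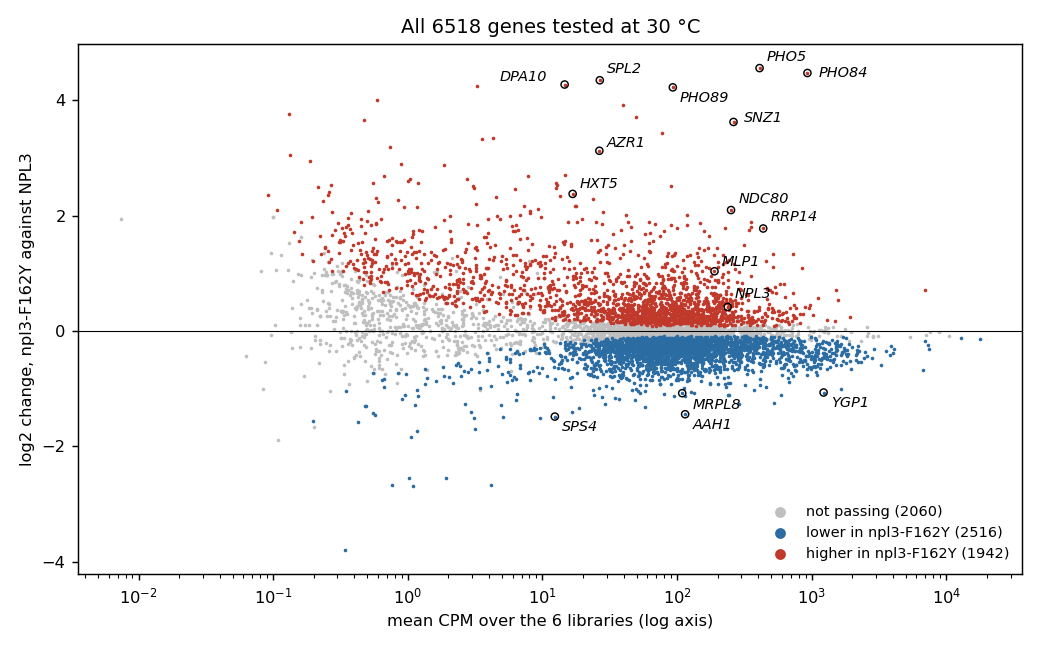
Log2 change in npl3-F162Y against NPL3 at 30 °C (y axis) by mean CPM over the 6 libraries (x axis, log scale), 1 point per gene tested, coloured by the outcome of the test. The phosphate genes PHO5, PHO84, SPL2 and PHO89 lie above 4, while the falls among well expressed genes end near -1.5.

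The NPL3 transcript (chromosome IV, 1328783 to 1330027, + strand, R64) was present in all 6 libraries. It stood at 208, 206 and 198 CPM in NPL3 and at 254, 288 and 274 CPM in npl3-F162Y. The groups did not overlap, and the transcript was 1.34-fold higher in the mutant (log2 change 0.42 ± 0.06 SE, edgeR adjusted p = 1.5e-06). An exact permutation test of the 6 values, two-sided, gave p = 0.1, the smallest value that 3 against 3 libraries allow. LEU2, the marker of the plasmid, averaged 289 and 253 CPM (log2 change -0.19, adjusted p = 0.00035), and with library size alone it did not pass (-0.07). Its counts do not separate the plasmid copy from the mutant allele in the genome. Genes whose products act on the Npl3 protein moved both ways. HMT1, the arginine methyltransferase, fell from 348 to 239 CPM (log2 change -0.54), MTR10 from 115 to 92.3 CPM (-0.31) and SKY1 from 141 to 119 CPM (-0.24), while GLC7, a phosphatase that acts on Npl3 in the nucleus, rose by 0.67 on the log2 scale.

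The steepest rises among well expressed genes were in genes of phosphate starvation. In the known pathway the cyclin-kinase pair Pho80-Pho85 keeps the activator Pho4 out of the nucleus when phosphate is plentiful. When phosphate is short the inhibitor Pho81 blocks the kinase, and Pho4, with the homeodomain protein Pho2, binds promoters at sites with the core CACGTG. YPD is rich in phosphate. Parts of the promoters of the leading genes are shown here because they carry this core, which stands in capitals. The sequences run 5′ to 3′ on the coding strand and were read from the R64 reference genome, not from the W303 strain.
PHO5 (chrII:431152-431251, - strand): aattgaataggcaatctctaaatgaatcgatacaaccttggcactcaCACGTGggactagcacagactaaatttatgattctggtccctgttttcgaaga
PHO84 (chrXIII:26176-26275, - strand): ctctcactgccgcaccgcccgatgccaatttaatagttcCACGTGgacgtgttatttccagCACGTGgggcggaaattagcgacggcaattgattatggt
SPL2 (chrVIII:375121-375260, - strand): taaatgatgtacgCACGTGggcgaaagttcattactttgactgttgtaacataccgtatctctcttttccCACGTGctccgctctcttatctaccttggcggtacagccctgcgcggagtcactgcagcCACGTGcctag
PHO89 (chrII:798793-798892, - strand): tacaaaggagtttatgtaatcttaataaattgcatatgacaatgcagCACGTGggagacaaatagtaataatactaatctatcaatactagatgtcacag

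The core began 253 bases before the start codon in PHO5, 436 and 414 bases before it in PHO84 and 323 bases before it in PHO89. SPL2 held 4 copies, at 361, 147, 90 and 31 bases. The core reads the same on both strands, and it occurred in the 500 bases before the start codon in 360 of 5826 protein-coding genes tested (6.18%). Of the 47 protein-coding genes that rose at least 4-fold, 9 had it (19.1%). Among the 46 genes of the phosphate lists it was found in 11 of the 14 that rose at least 2-fold and in 8 of the other 32. A match is a description of the sequence and not of binding.

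Among the transporters, PHO84, the high-affinity phosphate importer, stood at 64.05, 95.4 and 81.2 CPM in NPL3 and at 1802, 1808 and 1728 CPM in npl3-F162Y. It was 22.3-fold higher (log2 change 4.48 ± 0.23 SE). PHO89, the sodium-coupled importer, went from 9.43, 9.39 and 9.47 CPM to 182, 178 and 169.6 CPM, an 18.7-fold rise. For both genes the lowest mutant library lay more than 10-fold above the highest NPL3 library. SPL2, which restrains the low-affinity carriers, rose from 2.46, 2.39 and 2.599 CPM to 51.3, 49.8 and 51.5 CPM (20.4-fold). GIT1, the permease for glycerophosphoinositol, rose 3.72-fold, from 26.4 to 98.2 CPM. The low-affinity carriers did not follow: PHO87 fell from 166 to 107 CPM (log2 change -0.64), and PHO90 had -0.27 (adjusted p = 0.056, edgeR, or 4.9e-04 in a fit of only the 6 libraries). PHO91, the vacuolar exporter, rose by 0.25 on the log2 scale and PHO86, which helps Pho84 leave the endoplasmic reticulum, by 0.26. In all, 6 of 9 transport genes rose and 2 fell.

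Secreted acid phosphatases rose as steeply. PHO5, the main repressible enzyme, stood at 37.1, 31.9 and 30.7 CPM in NPL3 and 795, 814 and 752 CPM in the mutant, a 23.6-fold rise (log2 change 4.56 ± 0.08 SE). PHO11 rose from 6.94 to 91.6 CPM and PHO12 from 12.9 to 140.5 CPM, but they are near-identical copies, so reads may have been split between them. PHO3, the constitutive neighbour of PHO5, rose by 0.32 on the log2 scale. The vacuolar alkaline phosphatase gene PHO8 rose 1.54-fold and PHM8, a nucleotide and lysophosphatidate phosphatase, 2.07-fold. PHO13, a phosphoglycolate phosphatase, fell by 0.34, and DCS2 had 0.07 (adjusted p = 0.47, edgeR). The groups did not overlap for the 6 genes of this list of 8 that rose.

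Polyphosphate genes rose with them, 8 of 10. The vacuolar transporter chaperone complex, which makes polyphosphate, had VTC3 at 147, 164 and 155 CPM against 507, 551 and 518 CPM (3.39-fold), VTC4 2.33-fold, VTC1 2.24-fold and VTC2 1.55-fold higher. VTC5 rose by 0.37 on the log2 scale. PHM6, a phosphate-regulated gene, rose from 1.94 to 10.7 CPM. Among the enzymes that break the polymer down, PPN2 rose by 0.19 and PPX1 fell by 0.24, while PPN1 had -0.01 (adjusted p = 0.8, edgeR), or 0.11 with library size alone. GDE1, which splits glycerophosphocholine, rose 2.48-fold.

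The regulators themselves moved in both directions. PHO81, the inhibitor of the kinase, rose from 122 to 222 CPM (1.82-fold), and PHO92, a reader of methylated RNA, rose 3.84-fold from 1.65 CPM. The cyclin gene PHO80 fell from 38.05 to 25.99 CPM (log2 change -0.55), the kinase gene PHO85 by 0.34 and the activator gene PHO4 by 0.46. PHO2 rose by 0.25. Of the inositol pyrophosphate kinases, VIP1 rose by 0.45 and KCS1 had 0.09 (adjusted p = 0.069, edgeR), which passed with RLE factors (0.12).

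**Figure D2:**
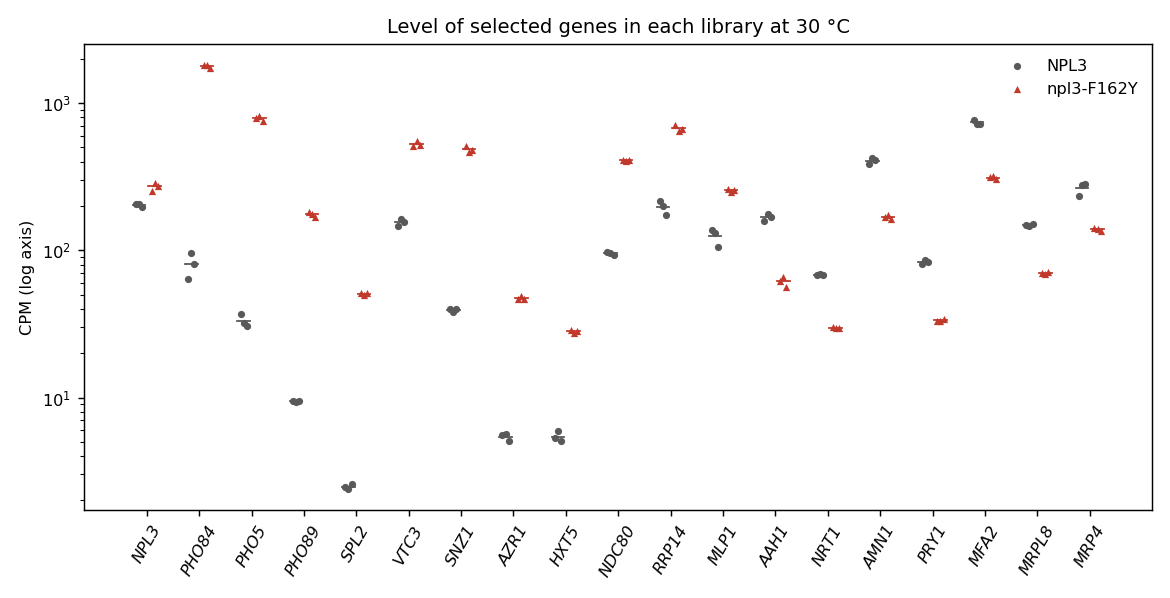
Level in CPM (y axis, log scale) of 19 genes in each of the 3 NPL3 (circles) and 3 npl3-F162Y (triangles) libraries at 30 °C; bars mark the group means. In none of these genes do the groups overlap.

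Outside the phosphate genes the largest rises came from several unrelated functions. SNZ1 and SNO1, a divergent pair for the synthesis of vitamin B6, rose 12.4-fold and 15.2-fold. SNZ1 stood at 40.04, 38.2 and 39.6 CPM in NPL3 and 507, 468 and 482 CPM in the mutant. Their paralogues, which are close copies of each other, moved far less. SNZ2 and SNZ3 rose 1.27-fold and 1.41-fold. SNO2 and SNO3 fell by 0.38 and 0.32 on the log2 scale. Neither passed when NPL3 replicate 1 (-0.33 and -0.31), NPL3 replicate 2 or npl3-F162Y replicate 3 was left out, or with library size alone. SNO3 also did not pass without npl3-F162Y replicate 2, with DESeq2 or in a fit of only the 6 libraries. AZR1, a plasma membrane exporter linked to azole resistance, rose from 5.596, 5.62 and 5.08 CPM to 47, 49.01 and 46.5 CPM (8.74-fold). HXT5, a hexose transporter of slow-growing cells, rose 5.203-fold, from 5.33, 5.89 and 5.04 to 28.8, 27.3 and 28.1 CPM. OSI1, induced by oxidative stress, rose from 26.7 to 153 CPM and SPG4, a stationary-phase gene, from 3.85 to 21.4 CPM. DPA10 rose 19.4-fold and LOH1, of the spore wall, 6.57-fold, both from under 5 CPM. CSS1 rose 5.75-fold but has a near-identical copy.

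NDC80, a subunit of the outer kinetochore, stood out among well expressed genes. It had 97.1, 96.2 and 92.5 CPM in NPL3 and 409.6, 404 and 410.2 CPM in npl3-F162Y, 4.28-fold more (log2 change 2.10 ± 0.05 SE). Meiotic cells are known to make a 5′-extended NDC80 transcript, and counts per gene do not separate transcript forms. RRP14, a ribosome assembly factor, rose from 217, 199.5 and 174 to 712, 650.5 and 666 CPM (3.43-fold). MYO1, the myosin II heavy chain of the contractile ring, rose 2.73-fold, and CIN8 and KAR3, both kinesin motors, 2.15-fold and 1.995-fold.

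Falls were shallower. AAH1, adenine deaminase, stood at 158, 176 and 169 CPM in NPL3 and 62.2, 66.2 and 56.6 CPM in the mutant, 2.72-fold lower. NRT1, the nicotinamide riboside carrier, went from 68.01, 68.6 and 67.8 to 29.9, 29.8 and 29.7 CPM (2.29-fold lower). AMN1, a daughter-specific inhibitor of mitotic exit, fell from 386, 421 and 411 to 169, 175 and 162.4 CPM (2.405-fold). SPS4, a sporulation gene, fell 2.798-fold from 18.2 CPM. EFM3, which methylates elongation factor 2, fell 2.63-fold, and SLI1, an acetyltransferase of drug resistance, 2.53-fold. MRS2, the mitochondrial magnesium channel, fell 2.23-fold, CHA1, serine and threonine deaminase, 2.18-fold, and STP4 and GFD2 2.25-fold and 2.18-fold. HMS2 fell 2.17-fold, though it overlaps YJR146W on the same strand. The rest of the 15 largest falls, PRY1, NCA3, SCW11 and MFA2, belong to groups described further on.

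Genes for the mitochondrial ribosome fell almost without exception. Of 75 tested, 73 were lower in npl3-F162Y and 1 was higher, with a median log2 change of -0.60. Over all genes tested 38.6% were lower, and the median was -0.04. MRPL8 stood at 148, 147 and 149.8 CPM in NPL3 and 70.6, 68.9 and 71.2 CPM in the mutant, 2.11-fold lower. MRP4 fell from 234, 277 and 281 to 143, 139 and 136 CPM and overlaps YHL005C on the opposite strand. For both the groups were well apart. RSM26 and MRPL1 fell 1.83-fold and 1.81-fold. The gene that rose was MRP8, from 189 to 276 CPM, which is in the list by its name but is not an established ribosomal protein. MRPS16 had -0.16 (adjusted p = 0.12, edgeR), or -0.11 and a call in a fit of only the 6 libraries. With library size alone 70 of the 75 were lower.

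Nuclear transcripts for the mitochondrial ribosome are known targets of Puf3, a Pumilio protein that binds an element in the 3′ untranslated region and promotes decay of the mRNA. The element was looked for after the values had been seen, as TGTANATA on the sense strand of the 200 bases after the stop codon. It was present in 73 of the 75 genes (97.3%), against 836 of 5826 protein-coding genes tested (14.3%). The listed genes without it were MRP8, whose membership is doubtful as said above, and RSM22, which fell by 0.33 on the log2 scale. Sites of the 4 members that fell most are shown, with the element in capitals.
MRPL8 (chrX:315714-315743, - strand): gtgtattccctTGTAAATAtatagatgaca
MRP4 (chrVIII:100429-100458, + strand): taacctaaactTGTACATAtgcccatatat
RSM26 (chrX:619111-619140, + strand): atcttatatacTGTAAATAgttttatttta
MRPL1 (chrIV:682668-682697, - strand): acttttttaatTGTATATAtatatatactg

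Across all protein-coding genes, the 836 with the element had a median log2 change of -0.21 and 58.0% were lower, while those without had -0.05 and 39.7%. Outside the mitochondrial lists the 723 genes with it had a median of -0.14, against -0.04 without. Within the list of respiratory complexes III and IV the medians were -0.67 for the 9 genes with it and -0.34 for the others, and for the ATP synthase -0.42 and -0.22. The difference was small in the import list (-0.41 and -0.33) and the TCA cycle (-0.12 and -0.09), and cytosolic ribosomal protein genes with the element, 2 and 4 of the small and large subunit, fell no more than the others (-0.47 against -0.48 and -0.40 against -0.43). The PUF3 transcript itself did not pass, at 29.3, 31.5 and 31.1 CPM in NPL3 and 28.3, 32.9 and 31.8 CPM in npl3-F162Y (adjusted p = 0.89, edgeR). These are descriptions of letters in a window and show no binding.

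**Figure D3:**
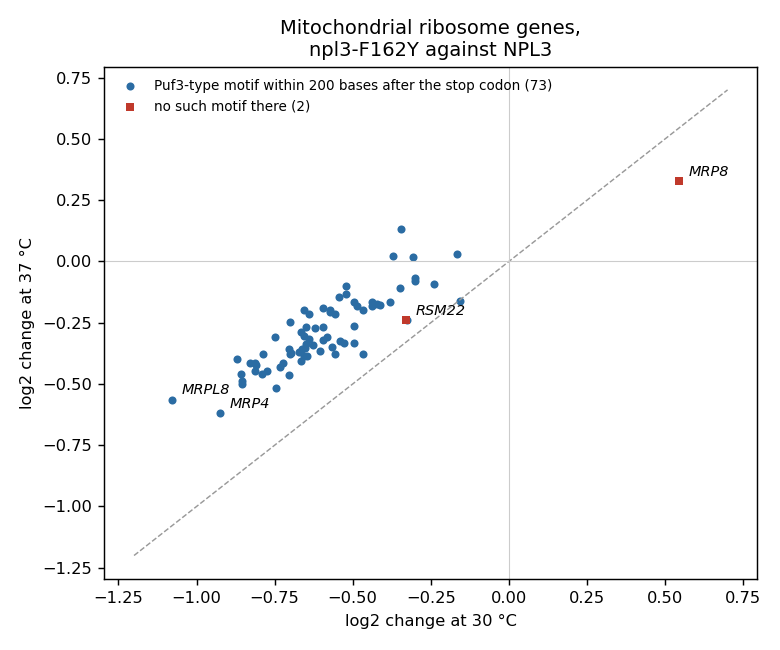
Log2 change of the 75 mitochondrial ribosome genes in npl3-F162Y against NPL3 at 30 °C (x axis) and at 37 °C (y axis), marked by presence of the Puf3-type element after the stop codon; the dashed line marks equal change. Nearly all genes lie below 0 at 30 °C and above the line, that is, with a smaller fall at 37 °C.

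Other mitochondrial groups fell too. Of the import machinery 32 of 36 genes were lower (median log2 change -0.38), led by TOM7, TIM22 and TIM10 (-0.69, -0.68 and -0.65). In respiratory complexes III and IV 24 of 30 were lower (median -0.42). COX10 and COX15, of heme A synthesis, and the copper chaperone genes COX17 and COX11 had -0.86, -0.68, -0.70 and -0.69. CYC7, the cytochrome c isoform of low oxygen, rose from 39.1 to 65.7 CPM, and COX26 rose 2.03-fold. For ATP synthase 17 of 20 were lower, with INH1, its inhibitor, at -0.93. Of the TCA cycle genes 12 of 24 were lower and 5 higher, but with library size alone 5 were lower and 8 higher. Over all genes tested 38.6% were lower and 29.8% higher. HAP4, the activator of respiratory genes, had 172 and 180.2 CPM (adjusted p = 0.64, edgeR), though it passed in a fit of only the 6 libraries (log2 change 0.11).

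Cytosolic ribosomal protein genes were nearly all lower as well, 56 of 57 for the small subunit (median log2 change -0.48) and 80 of 82 for the large (median -0.43). None rose. RPL8A had the steepest fall, from 834, 798 and 781 to 370.3, 388 and 359.9 CPM (2.16-fold). Many of these genes exist as near-identical pairs, so the split between copies is uncertain. Of ribosome biogenesis factors 71 of 126 fell and 9 rose. NOG2, which hosts a small nucleolar RNA in its intron, and NSR1 fell 1.86-fold and 1.85-fold. NOP8, NOP16 and NOP53 rose with RRP14, by 2.33-fold, 1.95-fold and 1.78-fold. With library size alone 45 fell and 16 rose, and in a fit of only the 6 libraries 20 rose.

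Further parts of the translation apparatus were lower. Translation factors had 34 of 43 lower, among them HYP2 (-0.47), the eIF5A gene of aerobic cells. Its hypoxic counterpart ANB1 rose from 2.31 to 9.13 CPM. Aminoacyl-tRNA synthetases had 19 of 23 lower (12 with library size alone), and RNA polymerase I 13 of 18 (7). RPA135, the second largest subunit of the enzyme, fell 1.46-fold. Nuclear pore and import genes had 36 of 52 lower, with NUP60 at -0.65 and the importin gene KAP95 at -0.53.

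**Figure D4:**
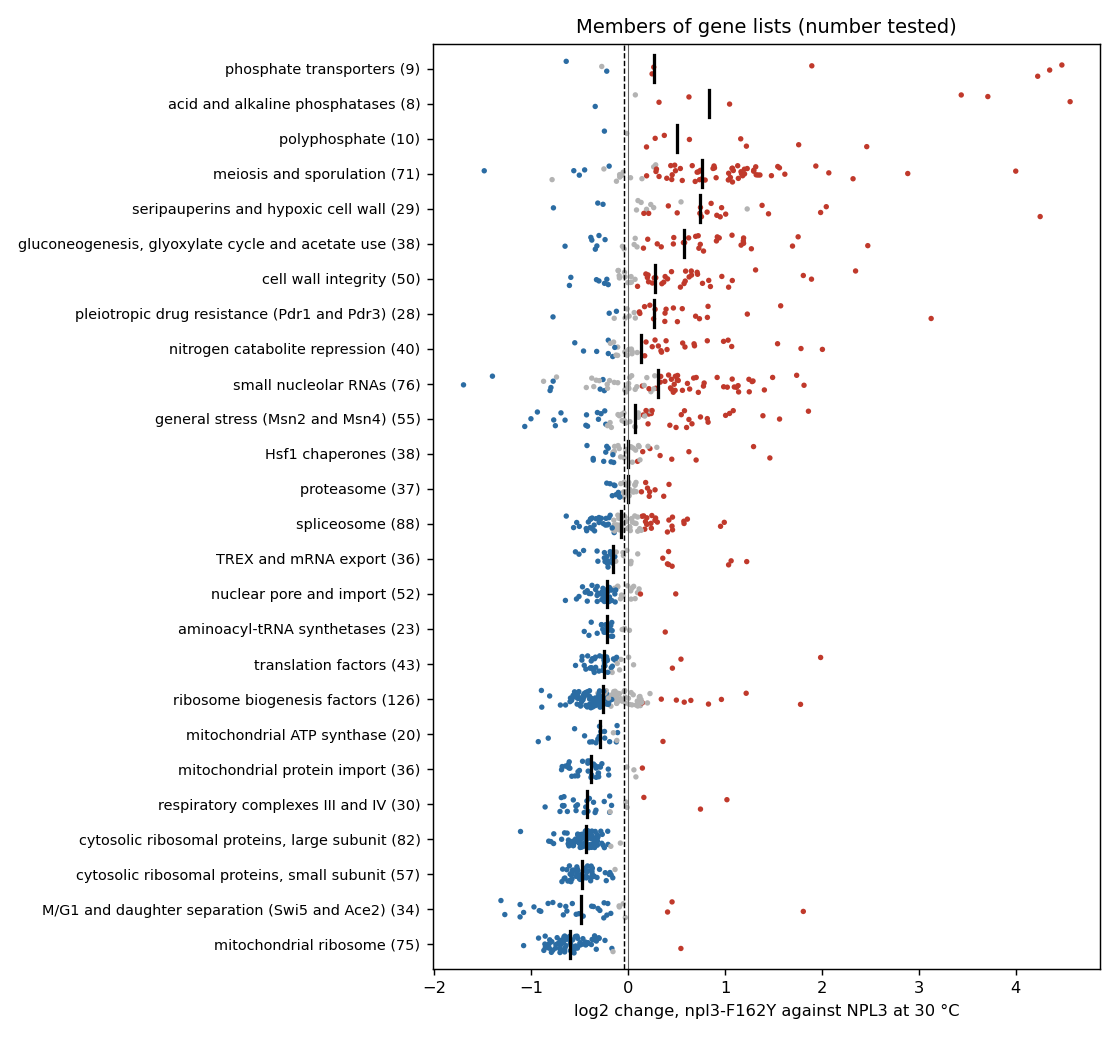
Log2 change in npl3-F162Y against NPL3 at 30 °C (x axis) for the members of 26 gene lists (y axis, number tested in brackets), 1 point per gene: red rose, blue fell, grey did not pass. Thick bars are list medians and the dashed line is the median of all genes, -0.04; mitochondrial ribosome genes lie furthest to the left, at -0.60.

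Genes of RNA handling, in which Npl3 takes part, moved both ways. Of the TREX and mRNA export list 8 of 36 rose and 20 fell (10 with library size alone). Over all genes tested 29.8% were higher and 38.6% lower. MLP1 and MLP2 encode filaments of the nuclear basket. MLP1 rose from 136, 132 and 105 to 259.9, 250 and 255 CPM (2.05-fold) and MLP2 from 154, 156 and 127 to 342, 326 and 352 CPM (2.34-fold), with no overlap. CDC31, a centrin of the export complex TREX-2, rose 2.09-fold. YRA1, the export adaptor, had -0.14 (adjusted p = 0.0037, edgeR), or -0.01 and no call with library size alone, and GLE2 fell 1.42-fold. The poly(A)-binding export factor gene NAB2 had -0.05 (adjusted p = 0.33, edgeR).

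The elongating polymerase was split as well, with 9 of 23 elongation factor genes higher and 6 lower (14 and 4 with library size alone), where 29.8% of all genes were higher and 38.6% lower. CTK1, the kinase of the polymerase tail, and the Paf1 complex genes RTF1 and CTR9 rose by 0.62, 0.52 and 0.42 on the log2 scale. SPT4, SPT5 and the Paf1 complex gene CDC73 fell by 0.32, 0.27 and 0.28. In 3′ end formation 7 of 23 genes rose and 9 fell, close to the shares over all genes, and 11 and 4 did so with library size alone. PTI1, a subunit of the cleavage and polyadenylation factor, fell from 29.6, 32.6 and 32.7 to 15.6, 15.2 and 15.7 CPM (2.04-fold). RTT103, GLC7 and RNA14, with roles in termination or cleavage, rose by 0.78, 0.67 and 0.49 on the log2 scale. HRP1, a shuttling protein of cleavage factor I, rose by 0.41. DBP2, an RNA helicase that assembles mRNPs, fell from 553, 645 and 618 to 323, 326 and 277 CPM (1.96-fold), with no overlap between the groups. Over the DEAD-box helicases 18 of 25 fell (10 with library size alone). Of the Nrd1 list, 12 of 21 rose and 6 fell, and IMD2, URA8 and SER3 were among the rises, at 0.55, 0.69 and 1.11. SER3 shares its strand and part of its span with SRG1.

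In RNA decay DCP1, of the decapping enzyme, rose 1.94-fold and the nonsense-mediated decay genes UPF3 and NMD2 rose 1.56-fold and 1.55-fold. The deadenylase gene CCR4 fell 1.38-fold and MOT2 1.42-fold. Over the list 10 of 38 rose and 20 fell, where 29.8% of all genes were higher and 38.6% lower. Spliceosome genes were split, with 23 of 88 higher and 28 lower, no larger shares than over all genes (29.8% and 38.6%). With library size alone 35 were higher and 19 lower, and the sign of the median (-0.07) turned. PRP3 and CWC15 rose 1.99-fold and 1.94-fold and LSM5, which overlaps a dubious frame on the other strand, fell 1.56-fold. Intron-containing genes that do not code for ribosomal proteins had a median log2 change of -0.07 (222 genes), against -0.06 without an intron (5465 genes).

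The small nucleolar RNAs, read at low levels from an mRNA kit, had 41 of 76 higher and 8 lower. The number lower was 3 with library size alone, 4 without NPL3 replicate 2 and 5 without NPL3 replicate 3 or npl3-F162Y replicate 1 or 3. Their summed share of the assigned reads was 0.0621 to 0.0669% in NPL3 and 0.0898 to 0.0927% in the mutant. SNR13, with known read-through into the next gene when termination fails, rose from 2.73, 2.53 and 2.64 to 7.82, 10.1 and 10.1 CPM and SNR8 from 2.63, 3.22 and 2.79 to 9.98, 9.14 and 9.55 CPM. SNR41 and SNR70, which neighbour each other on the same strand of chromosome XVI, went the other way. SNR41 fell from 4.53, 4.51 and 5.39 to 1.83, 1.34 and 1.22 CPM and SNR70 from 4.397, 3.87 and 4.54 to 1.43, 1.96 and 1.49 CPM. Over the tRNA genes 17 of 92 were higher (18.5%) and 2 lower (2.17%), smaller shares than the 29.8% and 38.6% of all genes. The members that the naming rule picked were all at under 1 CPM. The number higher fell to 9 without NPL3 replicate 1 or 2, 10 without npl3-F162Y replicate 1 and 7 without npl3-F162Y replicate 3. RPR1, the RNase P RNA, fell 1.82-fold from 2.07 CPM.

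Cell cycle groups moved unevenly. Genes of the M/G1 transition and of daughter cell separation fell, 27 of 34 (median log2 change -0.49), with 5 at least 2-fold lower. PRY1, a secreted lipid-binding protein, went from 80.2, 85.5 and 83.5 to 33.1, 32.9 and 34.4 CPM and SCW11, a daughter cell glucanase, from 336, 345 and 322 to 152, 154 and 157 CPM. DSE2 fell 2.17-fold and NCA3 2.42-fold. PIR3, a cell wall protein of the same phase, instead rose from 143, 163 and 167 to 557, 539.8 and 558 CPM. G1 and S phase genes had 25 of 46 lower and 11 higher (15 and 16 with library size alone), with PCL2 and CLB6 at -0.65 and -0.59 and SVS1, a cell wall gene, at 1.03. In the G2 and M list 15 of 36 rose and 8 fell (4 with library size alone). Over all genes tested 29.8% were higher and 38.6% lower. MYO1, CIN8, SRC1 and IQG1 were among the rises, while SFG1 and PMP1 fell 1.64-fold each. Of the histone genes 4 of 11 were lower, by up to 0.32 on the log2 scale (HTB2), a share close to the 38.6% of all genes. The number was 2 without NPL3 replicate 1 or npl3-F162Y replicate 1, 2 with a filter at a mean of 10 CPM, 1 with library size alone and 7 when 4 libraries of other groups with deviating sample numbers were left out of the fit.

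The markers fitted the labelled mating type. The a-cell genes STE2 and MFA2 stood at 870.1 and 738 CPM in NPL3, and the alpha-cell genes MF(ALPHA)1, MF(ALPHA)2 and STE3 at 1.43, 1.63 and 7.65 CPM, with SAG1, the alpha-agglutinin gene, at 59.3 CPM. In the mutant 6 of the 7 a-cell genes were lower. MFA2, encoding a-factor, fell from 771, 723 and 722 to 313, 318 and 306 CPM (2.37-fold), STE2, the alpha-factor receptor, fell 1.65-fold, BAR1 1.43-fold and MFA1 1.29-fold. The summed a-cell level was 2676 to 2758 CPM in NPL3 and 1704 to 1730 CPM in the mutant. The summed alpha-cell level was 67.5 to 72.3 CPM in NPL3 and 106 to 113 CPM in the mutant, with 3 of 4 genes higher. SAG1 held most of that sum, at 92.8 CPM in the mutant, and MF(ALPHA)2 was more than 2-fold lower. The pheromone pathway genes FAR1, SST2, GPA1 and STE4 fell by 0.92, 0.62, 0.60 and 0.52 on the log2 scale. Fewer cells of a kind and less RNA per cell cannot be told apart in such bulk samples.

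Genes of meiosis and spore formation, programmes of diploid cells, were often higher. Of 71 meiosis and sporulation genes 54 rose and 5 fell (median log2 change 0.76), 30 of them at least 2-fold. In a fit of only the genes with a mean of at least 10 CPM 22 of 30 rose and 3 fell. The summed level was 779 to 788 CPM in NPL3 and 1154 to 1190 CPM in npl3-F162Y. SSP2, a spore wall gene, rose from 10.96, 10.6 and 10.7 to 46.8, 46.2 and 42.5 CPM. DIT1, DMC1 and SPO21 went from 16.7, 7.15 and 8.92 CPM to 27.9, 12.2 and 14.8 CPM. SPS4 fell, as above, and SPS100 and SMK1 had 0.14 and -0.09 (adjusted p = 0.18 and 0.64, edgeR). SPS100 passed with library size alone (0.27). The meiotic regulator genes IME1 and NDT80 rose by 0.19 and 0.80 on the log2 scale, to 16.7 and 7.41 CPM, though IME1 did not pass without npl3-F162Y replicate 2 (0.15).

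Hypoxic and cell wall genes were often higher. Of the seripauperin and hypoxic list 18 of 29 rose and 3 fell, with DAN1 from 0.33 to 6.24 CPM and TIR1 from 3.19 to 13.1 CPM. The summed level was 1837 to 1892 CPM in NPL3 and a lower 1339 to 1428 CPM in the mutant, with the desaturase gene OLE1 alone at 1388 and 814 CPM. Several of these genes are close copies of each other, and ROX1, their repressor gene, fell by 0.26, or had -0.14 and no call with library size alone. Of the cell wall integrity list 32 of 50 rose and 7 fell. GSC2, the stress-induced glucan synthase, went from 140.2, 157 and 153 to 565, 559.9 and 548 CPM (3.71-fold), and CRG1 rose 2.49-fold. GAS1 and UTR2, which remodel the wall in growing cells, fell 1.51-fold and 1.52-fold.

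Genes for the use of carbon sources other than glucose were often higher. Gluconeogenesis, glyoxylate and acetate genes had 26 of 38 higher and 7 lower (median log2 change 0.58), led by SFC1, a mitochondrial succinate-fumarate carrier, at 0.931 and 5.24 CPM, the malate synthase gene MLS1 at 3.01 and 10.2 CPM and FBP1, for fructose bisphosphatase, at 1.85 and 5.97 CPM. ALD3, a stress-induced aldehyde dehydrogenase, and MDH3, the peroxisomal malate dehydrogenase, were among those that fell, by 0.65 and 0.38 on the log2 scale. The summed level of the list was 6516 to 6631 CPM in NPL3 and 6564 to 6595 CPM in the mutant. Of the galactose, maltose and sucrose genes 12 of 19 rose and 4 fell. IDP2 rose from 33.3, 32.2 and 34.99 to 80.8, 81.7 and 80.5 CPM. HXT1 and HXT4, hexose carriers of growing cells, fell from 521 and 229.7 CPM to 322 and 122 CPM. HXK1, hexokinase 1, fell 1.68-fold. The fatty acid oxidation genes POT1 and POX1 rose 4.51-fold and 4.05-fold, and ADR1 and CAT8, activators of such genes, 2.28-fold and 1.92-fold. Of 28 drug resistance genes 19 rose and 3 fell, with RTA1 second to AZR1 at 2.98-fold.

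Stress genes did not move as a block. In the Msn2 and Msn4 list 22 of 55 rose and 15 fell, where 29.8% of all genes were higher and 38.6% lower. TMA10 and XBP1 rose 3.63-fold and 2.62-fold. YGP1, a secreted glycoprotein, fell from 1784, 1656 and 1539 to 779.5, 790.5 and 808 CPM and the membrane protein genes MRH1 and YRO2 2.003-fold and 1.91-fold. Of the Hsf1 chaperones 9 of 38 rose and 10 fell (16 and 3 with library size alone), no larger shares than over all genes. The number that rose was 14 with a filter at a mean of 10 CPM and 15 in a fit of only the 6 libraries. BTN2 and HSP30 rose 2.45-fold and 2.76-fold, and HSP26 had -0.04 (adjusted p = 0.66, edgeR). PMA1, the plasma membrane proton pump and among the most abundant transcripts, fell from 8336, 8084 and 8327 to 5059, 5284 and 5077 CPM (1.605-fold), with its regulator PMP1. ENA1, the sodium pump and the first of near-identical tandem copies, rose from 17.4 to 58.6 CPM. The nutrient-signalling kinase gene RIM15 rose 2-fold, whereas RAS1 and RAS2, GTPases of the protein kinase A pathway, fell 1.605-fold and 1.35-fold. In autophagy ATG8, the lipid-conjugated coat protein, rose 2.58-fold and ATG39, a receptor for nuclear envelope, 2.303-fold.

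Nutrient genes changed pathway by pathway. In NAD synthesis and uptake NRT1, BNA7, TNA1 and BNA5 fell by 1.19, 1.00, 0.90 and 0.72 on the log2 scale, while the biotin genes BIO3, BIO4 and BIO5 rose 2.27-fold, 2.39-fold and 3.33-fold. ZRT1, the high-affinity zinc carrier, rose from 46.2, 48.5 and 45.7 to 197.2, 189.7 and 183 CPM, and its low-affinity counterpart ZRT2 fell from 200.1 to 126 CPM. Of the iron uptake genes 21 of 36 rose and 7 fell (3 with library size alone), with TIS11, a decay factor for iron-enzyme mRNAs, from 5.71 to 12.8 CPM. In leucine synthesis LEU1 and BAT1 rose 2.52-fold and 2.13-fold from 409 and 539 CPM. The sulfate carriers SUL1 and SUL2 rose 4.32-fold and 2.495-fold. Glycine cleavage and one-carbon genes GCV1, MTD1 and ADE17 rose 2.17-fold, 2.12-fold and 2.2-fold, whereas the purine salvage genes XPT1 and APT1 fell 2.04-fold and 1.55-fold. In pyrimidine synthesis 15 of 20 genes fell, URA7 and URK1 by 0.67 and 0.53 on the log2 scale. Of 40 genes under nitrogen catabolite repression 20 rose and 7 fell (3 with library size alone). Over all genes tested 29.8% were higher and 38.6% lower. DAL4 and PUT1 rose 4.01-fold and 3.44-fold. OLE1, the fatty acid desaturase, fell from 1372, 1412 and 1379 to 831, 853 and 757 CPM, and 21 of 30 ergosterol genes fell (11 with library size alone).

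Features that the reference gene table does not hold, mostly dubious reading frames, had 175 of 493 higher and 35 lower. Nearly all of these features lie at a few CPM or less. Over all genes tested 29.8% were higher and 38.6% lower. Of the noncoding RNAs RUF21 and RUF22, the largest rises, reached 0.334 and 0.151 CPM only, and the RUF22 values of the groups overlapped. SRG1 and ICR1, which regulate SER3 and FLO11 in cis, had 0.27 and -0.34. IRT1, transcribed across the IME1 promoter, rose from 26.6 to 41.3 CPM.

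Direction went with coding length and base composition. Over all 5826 protein-coding genes tested 29.1% were higher and 42.3% lower. Among protein-coding genes with a mean of at least 10 CPM, those with coding sequences over 4000 bases were higher in 61.3% and lower in 10.8% (204 genes). Those of up to 500 bases were higher in 19.2% and lower in 53.8% (600 genes). The A content of the coding sequence, examined after values had been seen, also went with direction, above a flat range. From decile 1 to decile 6 of A content 20.8 to 24.6% of the genes were higher. In decile 10, with 37.0 to 47.4% A, 46.8% were higher and 22.6% lower. In decile 1, with 17.4 to 27.8% A, 24.2% were higher and 52.3% lower. The pattern held within length classes: among coding sequences over 2000 bases, 58.4% of those with over 35% A were higher, against 31.4% of the rest. Up to 1000 bases the shares were 29.7% and 19.1%. Several named genes are both long and A-rich, such as MLP1, MLP2 and MYO1, while RRP14 and NDC80 are A-rich and shorter.

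Direction also went with place on the chromosome. Of the protein-coding genes within 20 kb of a chromosome end 49.7% were higher (98 genes) and 20.8% lower (41 genes), against 27.7% and 43.6% of the 5191 genes more than 50 kb away. COS4 and COS6, subtelomeric genes of vacuolar sorting, rose 3.701-fold and 1.84-fold, though COS genes resemble each other. Among the silencing genes SIR3 rose 1.74-fold and SIR2 fell 1.698-fold. By level, 75.6% of genes above 1000 CPM were lower and 5.0% higher, while of genes between 1 and 10 CPM 48.9% were higher and 12.8% lower. These properties overlap, and their shares were not separated by a model. Genes are not independent replicates, so no test was made.

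**Figure D5:**
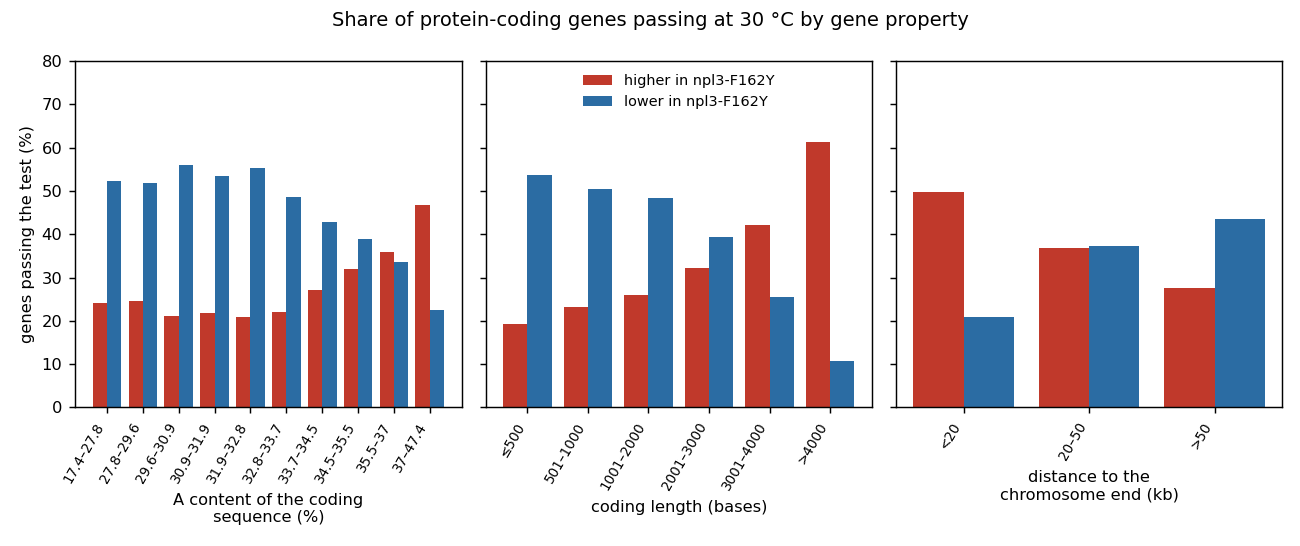
Share of protein-coding genes that were higher or lower in npl3-F162Y at 30 °C (y axis, percent) by A content of the coding sequence in deciles, coding length and distance to the chromosome end (x axes); the first 2 panels hold genes with a mean of at least 10 CPM. The share that was higher stays at 20.8 to 24.6% over deciles 1 to 6 of A content and reaches 46.8% in decile 10, and it climbs from 19.2 to 61.3% with length.

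At 37 °C, in other libraries, 3830 of 6518 genes passed between npl3-F162Y and NPL3 (58.8%), 1822 higher (28.0%) and 2008 lower (30.8%). The effect differed between the temperatures in 1334 genes (20.5%) by the interaction contrast of edgeR, 768 with a higher (11.8%) and 566 with a lower value at 37 °C (8.68%). This split depended on the scaling, as RLE factors gave 600 and 675 and library size alone 361 and 1071. Libraries numbered 2 of both genotypes at 37 °C were among 4 whose sample numbers stand apart from the rest, and without those 4 the counts were 3628 at 37 °C and 1154 for the interaction. Several phosphate genes rose less at 37 °C. The log2 change of PHO5 was 4.56 at 30 °C and 2.47 at 37 °C, that of PHO89 4.23 and 2.30, of PHO11 3.71 and 1.94 and of PHO12 3.44 and 1.77. PHO84 and SPL2 had 3.68 and 4.12 at 37 °C, and the interaction did not pass for either (adjusted p = 0.057 and 0.42, edgeR), though that of PHO84 passed with RLE factors (0.048), with library size alone (0.027), without NPL3 replicate 2 at 30 °C (0.038) and without NPL3 replicate 3 at 37 °C (0.00089). OSI1 and CSS1 had 1.04 and 1.16 at 37 °C.

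Other genes responded more at 37 °C. SSA3, an inducible Hsp70, rose by 0.63 at 30 °C and by 2.17 at 37 °C, where it stood at 113 ± 10.7 CPM in NPL3 and 511 ± 27.1 CPM in the mutant (mean ± SD, n = 3). BTN2, of protein aggregate sorting, rose by 1.29 and 2.31, but its interaction (adjusted p = 0.045, edgeR) did not pass with RLE factors (0.055), without the 4 libraries (0.12) or without any 1 of 9 single libraries of the comparison. MFA1 and HO changed direction, with -0.37 and -0.58 at 30 °C and 1.00 and 0.40 at 37 °C. AQR1, a drug and amino acid exporter, likewise had -0.58 and 0.57, the first of which did not pass in a fit of only the 6 libraries (-0.53). TKL2, a transketolase, had 0.09 at 30 °C (adjusted p = 0.46, edgeR) and 1.21 at 37 °C. The fall of the mitochondrial ribosome was shallower at 37 °C, with 61 of 75 lower and a median of -0.31, and 59 of its genes passed the interaction with a higher value (38 with library size alone). Cytosolic ribosomal proteins had medians of -0.45 and -0.40, and 0 of 57 and 7 of 82 genes passed the interaction with a higher value, or 11 and 24 without NPL3 replicate 1 at 37 °C. In the G2 and M list 24 of 36 genes had a lower value at 37 °C, MYO1 and CIN8 among them (0.41 and 0.39).

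Against the other alleles at 30 °C, npl3-F162Y differed from npl3-P196D-A197D in 1642 genes (25.2%), 724 higher (11.1%) and 918 lower (14.1%), or 1186 and 491 with library size alone. At 2-fold the numbers were 13 (0.199%) and 7 (0.107%). SPG4, PHO89, HSP30, HSP26 and NDC80 were higher in npl3-F162Y by 1.09, 1.00, 0.91, 0.87 and 0.81 on the log2 scale. NDC80, for example, averaged 408 CPM in npl3-F162Y, 233 CPM in the linker mutant and 95.2 CPM in NPL3. YRO2, BNA1, HXT4, SUL2 and YGP1 were lower, with differences of -0.77, -0.77, -0.76, -0.72 and -0.70. PHO5 and SPL2 did not differ between these alleles by the test, with differences of 0.00 ± 0.06 and 0.00 ± 0.08 (SE). Of the mitochondrial ribosome genes 63 of 75 were lower in npl3-F162Y than in the linker mutant, and 29 were lower than in npl3-F245I. These genes fell against NPL3 in the other alleles too. The number lower was 72 in the linker mutant (median log2 change -0.34) and 74 in npl3-F245I (median -0.47).

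Against npl3-F245I 2199 genes differed (33.7%), 1103 higher (16.9%) and 1096 lower (16.8%). PHO89, TKL2, HSP12, PHO11 and STB2 were higher in npl3-F162Y, by 1.71, 1.29, 1.22, 1.21 and 1.13 on the log2 scale. RPI1, MPT5, PRM7, PTI1 and XPT1 were lower, with differences of -0.94, -0.93, -0.93, -0.87 and -0.81. PTI1 averaged 15.5 CPM in npl3-F162Y and 28.3 CPM in npl3-F245I. MPT5 encodes another Pumilio protein, Puf5, and averaged 141 CPM in npl3-F162Y and 269 CPM in npl3-F245I. Against NPL3 at 30 °C MPT5 passed in npl3-F162Y, but not with RLE factors (log2 change -0.08) or library size alone (0.01). TKL2 and PRM7 did not pass in npl3-F162Y against NPL3, though PRM7 did in a fit of only the 6 libraries (-0.21). Of the general stress genes 40 of 55 were higher in npl3-F162Y and 2 lower. Against NPL3, 12 of these genes rose and 32 fell in npl3-F245I (median log2 change -0.28). In npl3-F162Y 22 rose and 15 fell against NPL3 (median 0.07). Since the 30 °C mutants were all set against the same NPL3 libraries, their changes against NPL3 are not independent of each other.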

How the data were processed

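Reads of 24 libraries were counted per gene by the authors. Per the submitters' processing notes, which give no order, FastQC, STAR 2.7.2a and HTSeq were used with the R64 genome, and the kit was a stranded mRNA kit per the labels. The sources used here do not say whether counting used the strand. The deposited values are raw counts for 7127 features, and 5 summary lines were left out.

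Counts were fitted with edgeR 4.0.16 (R 4.3.3), using TMM factors, filterByExpr and robust quasi-likelihood over 8 group means of all 24 libraries, and p-values were adjusted by Benjamini-Hochberg over 6518 genes at 0.05. The procedure was tested on simulated data. DESeq2 1.42.0, RLE factors, other filters, a fit of only the 6 libraries and single libraries left out were alternatives. Near-identical copies were found with BLAST 2.17.0 (at least 95% identity over 100 bases). Sequences and coordinates came from the RefSeq copy of R64, in which 5917 of 6600 mRNA features matched. Same-numbered libraries at 30 °C were not paired (correlations of their deviations 0.05, -0.01 and -0.08). At 37 °C the correlations were higher (0.30, 0.59 and 0.28), but the main fit of group means used no pairing there either. The largest, 0.59, joined the libraries numbered 2, whose sample numbers stand apart. A pairing therefore cannot be told from what sets those libraries apart. An alternative fit with a block for replicate number, applied to the 30 °C libraries too, moved no count at 37 °C by over 1.5 times.

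Named genes are NPL3 and genes that a rule made eligible, not all of which were named. Eligible were the 15 largest rises and falls with a standard name, a call, at least 10 CPM and no overlap. So were the 4 largest each way of each gene list and any member of lists of at most 15. Also eligible were the 5 largest each way among features that do not code for protein. The interaction gave 6 each way and each other allele 5 each way. List members without a change could also be named with their values. MTR10, SKY1, YRA1, SNZ2, SNZ3, RSM22 and the meiosis genes DIT1, DMC1, SPO21, IME1 and NDT80 were named after their values had been seen. PUF3, which did not pass, was named with its element, which was looked for after the values had been seen. The gene lists were chosen with earlier results of these data known.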

Additional observations from a re-analysis of the deposited data

Results flagged for a closer look

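The response to npl3-F162Y differed between the temperatures in 1334 genes by the interaction contrast. Leaving out single libraries moved this number between 1086 and 1938. The differences, 37 °C minus 30 °C on the log2 scale, were -2.09 for PHO5, -1.93 for PHO89, -1.77 for PHO11, -1.67 for PHO12, -1.48 for OSI1 and -1.37 for CSS1. They were 1.55 for SSA3, 1.36 for MFA1, 1.15 for AQR1, 1.13 for TKL2, 1.02 for BTN2 and 0.98 for HO. By list the interaction passed for 60 of 75 mitochondrial ribosome genes, 26 of 36 genes of the G2 and M phase, 24 of 50 cell wall integrity genes and 21 of 71 meiosis and sporulation genes, against 20.5% of all genes. Of the cell wall integrity genes that passed, 20 had a lower value at 37 °C. This number was 13 without NPL3 replicate 3 at 30 °C, and 13 without npl3-F162Y replicate 3 at 37 °C. The interaction split depended on the scaling, as given above.

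Reads assigned to no feature, which no comparison used, averaged 5.18% in npl3-F162Y at 30 °C and lay above the 4.39 to 4.63% of the NPL3 libraries in every library. An exact permutation test, two-sided, gave p = 0.1, the smallest that 3 against 3 libraries allow.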

How the results depend on the processing

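The number of genes passing at 30 °C was 4380 with RLE factors, 4461 without a filter, 3758 with a mean of at least 10 CPM, 4360 with DESeq2, 4646 with only the 6 libraries, 4593 without 4 libraries of other groups with deviating sample numbers, 4231 with library size alone (an alternative chosen after seeing the data) and 3852 at an adjusted p of 0.01. With the replicate block it was 4514, or 4665 in the fit of only the 6 libraries, and it was 3896 at 37 °C, 1443 for the interaction, 1746 against npl3-P196D-A197D and 2302 against npl3-F245I. Of the 4458 calls at 30 °C 4439 were kept with the block, and of the named genes MRPS16 gained and RUF22 lost its call. With each library left out in turn it was 4148 to 4251 at 30 °C, 3449 to 3839 at 37 °C, 1086 to 1938 for the interaction, 1185 to 1443 against npl3-P196D-A197D and 1548 to 1885 against npl3-F245I. The log2 change of NPL3 was 0.37 to 0.46 with a library left out, 0.49 with a mean of at least 10 CPM, 0.47 with only the 6 libraries and 0.54 with library size alone.

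Of 3699 values of named genes under these alternatives 3644 kept their direction and call, and of 900 list counts 852 stayed within 1.5 times. Of the other 48 list counts 36 moved with library size alone or with the filter at 10 CPM, and of the other 55 values 12 did. With library size alone MPT5 reversed against NPL3, from -0.11 to 0.014, and PPN1, which did not pass, from -0.01 to 0.11. AQR1, IME1, YRA1, ROX1, LEU2, SNO2, SNO3, MPT5 and RUF22 lost their call under at least 1 alternative, and the cause was not tested. Features under a few CPM, above all tRNA genes, rest on few reads, and the depth limits what can be said of them.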
